A study of Mus musculus with 6 samples.

Results

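The genes described here are 8 members of 3 ligand and receptor systems that act between the first lineages of the mouse embryo: the growth factor Pdgfa and its receptor Pdgfra, the 2 chains of the receptor for leukemia inhibitory factor (LIF), Lifr and Il6st, and, of the ERBB system, the ligand Nrg1 and the receptors Erbb2, Erbb3 and Egfr. They were taken by symbol from the feature lists of the count matrices, and all 8 were found among the 32285 genes. Single cells of pooled mouse embryos had been sequenced with 10x Chromium 3′ v3.1 chemistry at 6 stages named by embryonic day (E3.5 and E4.5, then E4.75, E5.0, E5.25 and lastly E5.5), with 1 library for each. All embryos were unmanipulated and came from B6SJLF1/J females and B6CBAF1/J males. The mothers of the first 2 stages were 4 weeks old and superovulated, and their embryos were flushed out. Those of the later stages were 7 weeks old and naturally mated, and their embryos were dissected. A 20 µm filter was used on the suspensions of both flushed stages and of E5.5 but on none between. No stage had a replicate, so no test was made, and each comparison is between 2 pools of cells.

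PDGFRα is a receptor tyrosine kinase that marks the primitive endoderm of the blastocyst, the layer that later forms visceral and parietal endoderm, while PDGF-A is made by neighbouring cells. LIF binds a receptor of LIFR and the shared chain gp130, encoded by Il6st, which signals through JAK kinases and STAT3. That signal sustains naive pluripotency, and LIF from the uterus is needed for implantation. The ERBB receptors bind EGF-like ligands such as neuregulin 1. ERBB3 binds neuregulins but needs a partner kinase, usually ERBB2, which has no known ligand of its own, and EGFR in the trophectoderm is bound by HB-EGF at the attachment reaction.

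The matrices held 42328 barcodes, of which 20820 were kept as cells (88, 962, 2497, 5262, 3908 and 8103 in order of stage), with median depths from 5103 UMIs at E5.5 to 31098 at E4.75. A UMI is a unique molecular identifier that stands for 1 captured RNA molecule. Clusters were named from marker lists, and the 8 genes played no part in clustering. Cells fell into epiblast (inner cell mass at E3.5), endoderm, parietal endoderm, trophoblast, trophoblast giant cells and 35 uterine epithelial cells at E4.75. That uterine class was not found under every alternative processing, as given below. Each class of at least 30 cells in a library was summed into a pool, which gave 25 pools. Each of the first 3 libraries had most of its epiblast in a cluster of its own, and most trophoblast and endoderm of E4.75 also lay in other clusters than those before and after. The endoderm of E4.5 lay in cluster 2 (418 of 419 cells), whose 10 leading genes held 4 of the parietal endoderm list (Lama1, Col4a1, Col4a2 and Srgn) and 1 of the endoderm list (Cubn), so it is called cluster 2 in each comparison. Cells of clusters with markers of 2 unrelated lineages were kept out of the pools. They were 15.2% of cells at E5.5. Of 20773 cell barcodes, 47 occurred in more than 1 library. Levels are given as CPM, the usual scaling of a gene's UMIs to all UMIs of its pool, with exact 95% Poisson intervals in square brackets. Shares are of cells with at least 1 UMI after each cell was thinned to 3000 UMIs, with exact Clopper-Pearson 95% intervals. Both intervals cover counting error only. CPM values are compared for 1 gene across pools, never between genes.

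Pdgfra was highest in the endoderm lineages and near 0 in the epiblast after E3.5. In the inner cells of E3.5 it was 114 CPM [91.3, 140], from 90 UMIs. Cluster 2 of E4.5 held 223 CPM [210, 236], and the 4 later endoderm pools held 105, 88.2, 86.4 and 77.8 CPM [70.6, 85.6]. The parietal endoderm, the migrating cells that lay down Reichert's membrane, held 235, 240, 260 and 220 CPM [199, 242] from E4.75 to E5.5. Its 4 pools and cluster 2 filled the first 5 places in the order of Pdgfra levels, with intervals that overlap from each to the next. The epiblast held 1.74, 0.847, 0.849, 0.698 and 1.75 CPM from E4.5 to E5.5, and no epiblast pool after E3.5 came near the endoderm. At E5.5 the endoderm level was 44.4-fold that of the epiblast [30.6, 66.6], and the parietal endoderm level was 2.82-fold that of the other endoderm [2.46, 3.24].

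**Figure D1:**
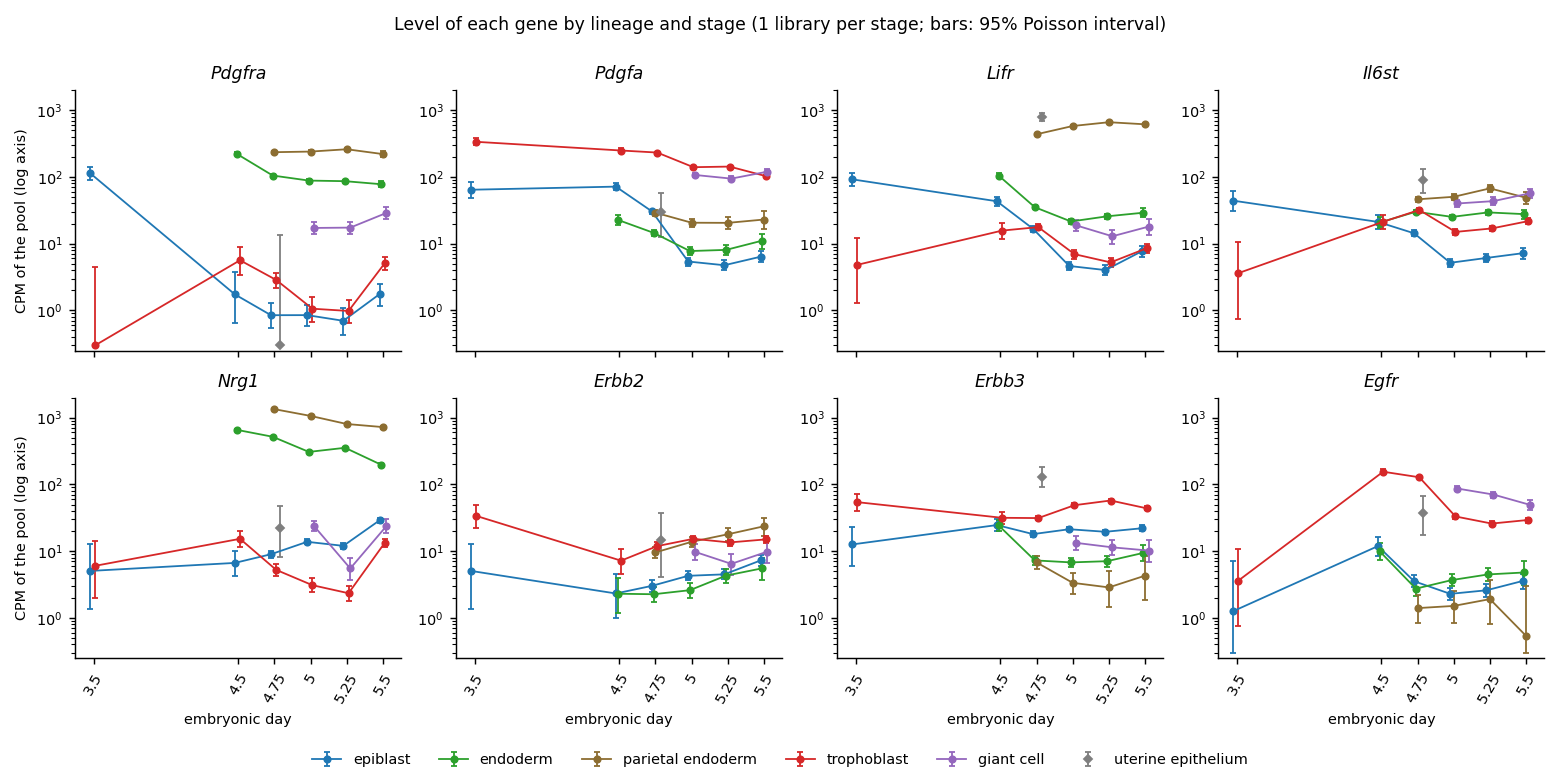
Level of each of the 8 genes in every pool of at least 30 cells, in CPM on a log axis (vertical) against stage in embryonic days (horizontal), with 1 line for each class, exact 95% Poisson intervals as bars, and values of 0 drawn at the lower edge. Pdgfra, Lifr and Nrg1 lie highest in parietal endoderm among the embryo's classes at E5.5 (220, 615 and 723 CPM), and Pdgfa lies highest in trophoblast and giant cells (103 and 120 CPM).

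The promoter of Pdgfra is shown because its RNA separated the endoderm lineages from the epiblast. The sequence is the RefSeq promoter window on GRCm38.p6, 250 bases before to 50 after the start, plus strand, chr5:75152001-75152300, and holds no capitals because none of the 3 motifs searched was found in it.
Pdgfra promoter: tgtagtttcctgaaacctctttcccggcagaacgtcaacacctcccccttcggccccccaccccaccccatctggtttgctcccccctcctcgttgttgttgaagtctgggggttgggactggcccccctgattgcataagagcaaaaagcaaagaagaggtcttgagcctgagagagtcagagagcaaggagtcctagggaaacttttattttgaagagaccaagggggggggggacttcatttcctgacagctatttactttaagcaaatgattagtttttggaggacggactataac
The motifs, searched on both strands with overlaps counted, were the GATA core GATAA, the TFAP2 palindrome GCCNNNGGC and the STAT palindrome TTCNNNGAA, which occur in 25.4%, 16.6% and 8.3% of 32851 promoter windows of that length. A lack of a match says only that these letters are not in the window. Pdgfra itself (ENSMUSG00000029231) lies at 75152292 to 75198215 of chromosome 5 in GRCm38, plus strand, and the unnamed models Gm42802 and Gm42803 overlap it on the opposite strand.

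The inner cells of E3.5 were divided in Pdgfra. Of 44 cells, 22 had a Pdgfra UMI and 22 had none, with at most 8 UMIs in 1 cell. Gata6, the endoderm factor, was found in 22 of the 22 cells with Pdgfra and in 10 of the 22 without. Gata4, another endoderm factor, was found in 17 and 5, and Sox17 in 14 and 2. The epiblast factor Nanog went the other way, with 12 of the cells with Pdgfra and 22 of those without. At E4.5 the division lay between clusters: 362 of 419 cells in the pool of cluster 2 had a Pdgfra UMI and 3 of 299 epiblast cells did. The epiblast of E3.5 stood 65.3-fold above that of E4.5 in Pdgfra [28.9, 183], which sets inner cells of both kinds against epiblast alone.

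**Figure D2:**
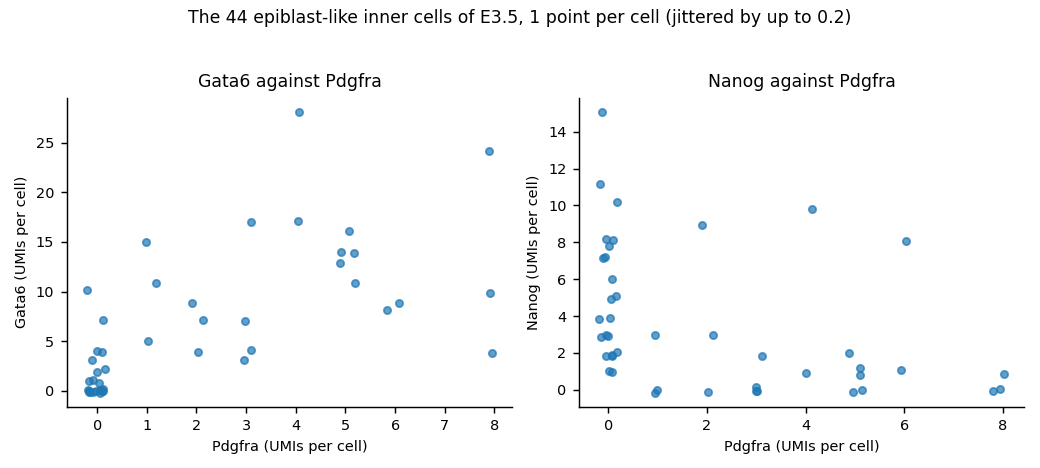
UMIs per cell of Gata6 (left) and Nanog (right) on the vertical axes against UMIs of Pdgfra on the horizontal axes, 1 point for each of the 44 inner cells of E3.5, moved by a small random amount so that points of equal value can be told apart. All 22 cells with Pdgfra have Gata6, and all 22 cells without Pdgfra have Nanog.

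Within the endoderm Pdgfra differed by cluster. Cluster 25 held 56.8, 49.2 and 31.9 CPM at E5.0, E5.25 and E5.5. Cluster 18 held 153, 124 and 104 CPM. Cluster 18 was the higher in each of the 3 libraries. Scored at 2-fold over the mean of all endoderm and parietal endoderm clusters, both had 6 of 8 markers of extraembryonic visceral endoderm. Cluster 17 had 5 of them, so that list did not tell these clusters apart. Of 7 markers of the anterior visceral endoderm cluster 25 had 5, cluster 17 had 2 and cluster 18 had 0. The parietal endoderm had a Pdgfra UMI in 54.4%, 49%, 53.9% and 49.2% of thinned cells, and the endoderm of E4.75 to E5.5 in 22.3%, 23.1%, 21.8% and 19.1%. The epiblast of E4.5 to E5.5, which should lack the gene, had at most 0.562%.

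**Figure D3:**
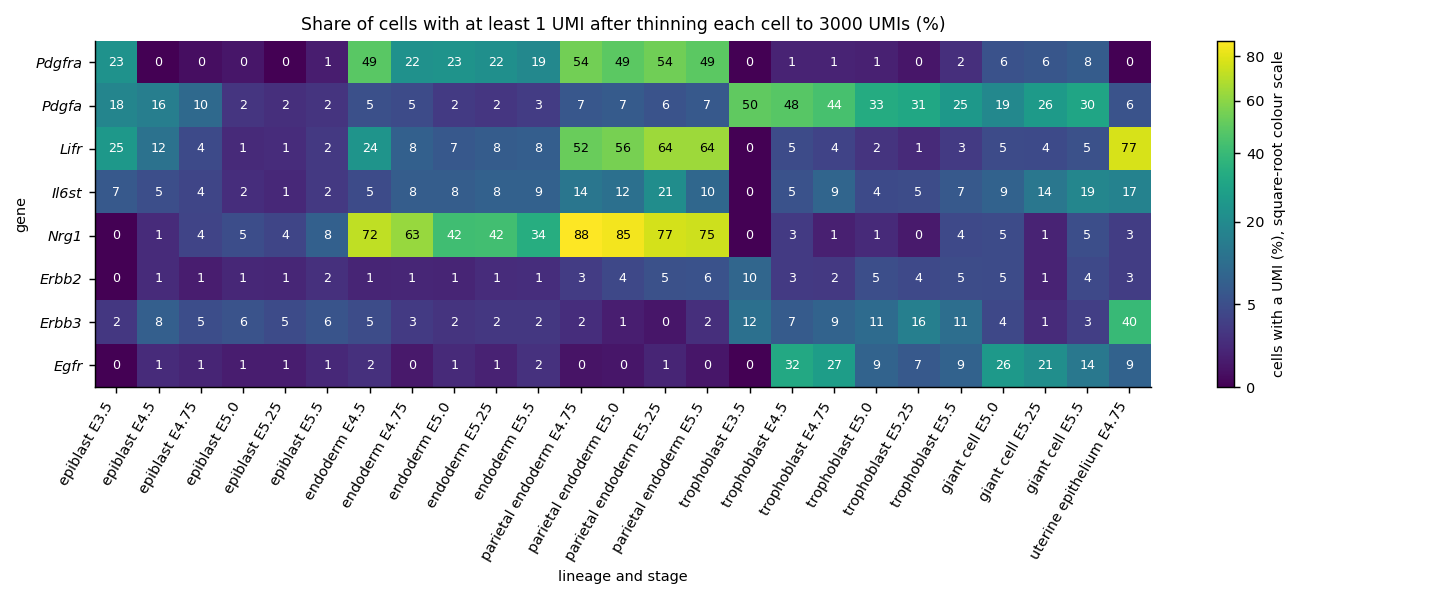
Share of cells with at least 1 UMI of each gene (rows) in every pool (columns, lineage and stage) after thinning each cell to 3000 UMIs, printed in percent and coloured on a square-root scale. Nrg1 is found in 87.7% of parietal endoderm cells at E4.75 and 74.6% at E5.5, and Pdgfa in 50% of trophoblast cells at E3.5 and 24.8% at E5.5.

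Trophoblast held little Pdgfra, with 0 UMIs at E3.5 (which allows up to 3.62 CPM) and 5.64, 2.86, 1.06, 0.98 and 5.08 CPM afterwards. Giant cells, the invasive outer trophoblast, held 17.2, 17.4 and 28.9 CPM [23.1, 35.7] at E5.0, E5.25 and E5.5, which was 16.2-fold, 17.8-fold and 5.68-fold [4.18, 7.72] the trophoblast level of the same library. The giant cell level of Pdgfra was 7.17%, 6.71% and 13.1% of that in parietal endoderm. The parietal markers Lama1, Lamb1, Col4a1, Sparc and Pth1r stood at 1.14% to 4.03%, 0.331% to 1.58% and 1.79% to 2.8% in the same pools, and Thbd at 214%, 125% and 67.4%. Summed over the list of 12 parietal markers, giant cells held 502, 280 and 533 CPM and trophoblast 255, 196 and 327 CPM, with none of the 12 at 0. Parietal endoderm held 14399, 18345 and 17921 CPM of that list. The other parietal markers are given only within these sums. The endoderm, which also carried Pdgfra, held 11605, 12000 and 11446 CPM of the 12 endoderm markers in these libraries. Giant cells held 786, 204 and 400 CPM of that list. The part of other cells' RNA in the giant cell values of Pdgfra was not tested.

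Pdgfa, the ligand, was highest in trophoblast and giant cells. Trophoblast held 336 CPM [298, 378] at E3.5, then 249, 232, 140, 143 and 103 CPM [98.6, 108]. Giant cells held 107, 94.4 and 120 CPM at E5.0 to E5.5. All 9 of these pools lay above every other pool. At E3.5, 40 of 42 trophoblast cells had a Pdgfa UMI, against 22 of 44 inner cells. In trophoblast the level at E4.5 was 2.41-fold that at E5.5 [2.22, 2.62].

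The epiblast held far less Pdgfa from E5.0 on than before. Its pools held 64.3, 71.6 and 30.4 CPM at its first 3 stages and at most 6.37 CPM from E5.0 on, and the level at E4.5 was 11.2-fold that at E5.5 [8.93, 14.2]. In single cells of E4.5 a Pdgfa UMI was found in 128 of 299 epiblast cells and 77 of 419 cells in the pool of cluster 2, and the level in that pool was 0.318 of that in epiblast. At E5.5 the endoderm level (11.1 CPM [8.44, 14.2]) was 1.74-fold that of the epiblast [1.25, 2.4], the opposite order to cluster 2 and epiblast of E4.5. Parietal endoderm held 29.1, 20.6, 20.5 and 23.0 CPM. Cells with a UMI of both Pdgfra and Pdgfa were 3.27% to 4.12% of thinned parietal endoderm cells.

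Trophoblast clusters also differed in Pdgfa. Cluster 0, with most trophoblast of E3.5 and E4.5, held 741 CPM in its 36 cells of E4.75, and cluster 8, with most of E4.75, held 208 CPM. Cluster 10 held 248, 244 and 185 CPM at E5.0 to E5.5, cluster 5 held 150, 145 and 112 CPM, and cluster 9 held 105, 111 and 80.6 CPM. The order of these 3 clusters was the same in each library. Pdgfa spans chromosome 5 from 138976014 to 138997370 on the minus strand (ENSMUSG00000025856), and 6330403L08Rik overlaps it on the opposite strand.

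**Figure D4:**
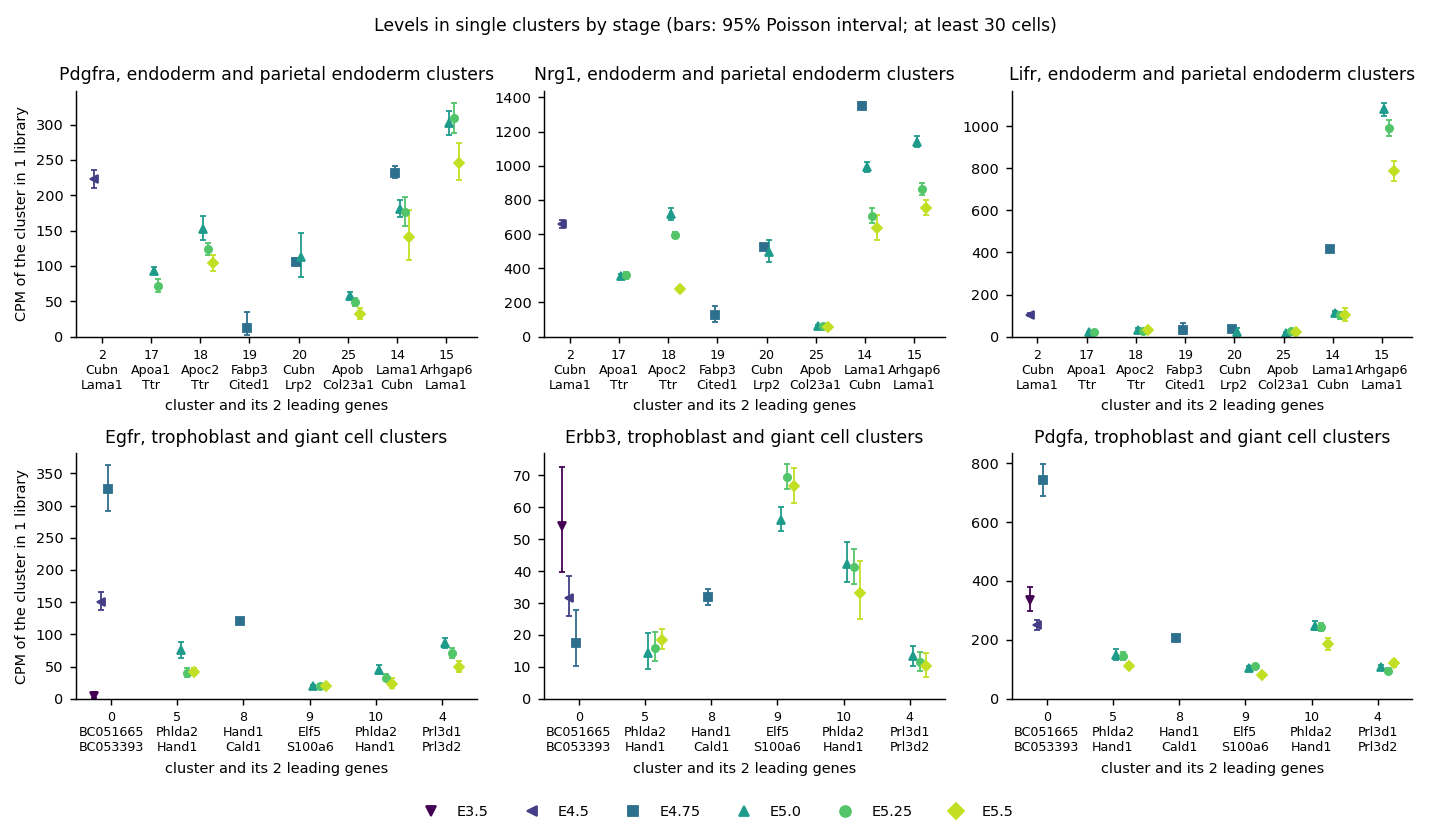
Level in CPM (vertical, linear from 0) in each cluster (horizontal, with its number and leading genes), as Pdgfra, Nrg1 and Lifr in endoderm and parietal endoderm clusters and Egfr, Erbb3 and Pdgfa in trophoblast and giant cell clusters, 1 point for each library with at least 30 cells and 95% Poisson intervals as bars. Pdgfa is higher in cluster 10 (248, 244 and 185 CPM) than in cluster 9 (105, 111 and 80.6 CPM), and Lifr is higher in parietal cluster 15 (1080, 992 and 787 CPM) than in cluster 14.

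Lifr, the ligand-binding chain of the LIF receptor, was highest in parietal endoderm and in the uterine epithelium. Parietal endoderm held 436, 580, 661 and 615 CPM [580, 651] from E4.75 to E5.5, and the uterine cells 783 CPM [681, 896], with 44.3% of their 212 UMIs in 5 cells. The endoderm held 105 CPM in cluster 2 of E4.5 and 35.2, 21.5, 25.7 and 29.1 CPM afterwards. At E5.5 the parietal level of Lifr was 21.1-fold that of the other endoderm [17.8, 25.1]. A Lifr UMI was found in 52.4%, 55.6%, 63.7% and 63.9% of thinned parietal cells.

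The 2 parietal clusters differed in Lifr. Cluster 15 held 1080, 992 and 787 CPM at E5.0, E5.25 and E5.5, and Lifr was among its 10 leading genes although it took no part in the clustering. Cluster 14, with most parietal cells of E4.75, held 418 CPM there and 111, 101 and 102 CPM in the later libraries. Cluster 15 thus stood above cluster 14 in each library from E5.0 on.

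The RefSeq promoter windows of Lifr are shown because its RNA separated parietal from other endoderm. They lie on the plus strand of GRCm38.p6 at chr15:7129322-7129621 and chr15:7140292-7140591. Capitals mark the match to GATAA in each window, which lies on the opposite strand and so reads TTATC, 32 bases after and 172 before the start.
Lifr promoter, first window: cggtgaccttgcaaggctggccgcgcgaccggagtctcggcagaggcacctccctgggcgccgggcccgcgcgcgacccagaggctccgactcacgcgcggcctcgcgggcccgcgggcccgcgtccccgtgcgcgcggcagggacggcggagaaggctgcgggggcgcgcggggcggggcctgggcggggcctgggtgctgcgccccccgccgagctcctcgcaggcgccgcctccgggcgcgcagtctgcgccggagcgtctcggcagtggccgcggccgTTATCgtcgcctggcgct
Lifr promoter, second window: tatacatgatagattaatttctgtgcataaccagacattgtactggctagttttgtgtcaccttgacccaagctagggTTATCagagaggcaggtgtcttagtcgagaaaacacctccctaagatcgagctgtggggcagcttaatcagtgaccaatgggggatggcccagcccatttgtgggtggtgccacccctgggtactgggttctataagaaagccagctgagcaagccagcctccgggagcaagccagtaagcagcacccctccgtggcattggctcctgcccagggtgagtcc
A match describes the letters and is no evidence of binding. Lifr (ENSMUSG00000054263) lies on the plus strand of chromosome 15 (7090614 to 7197489).

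In the pluripotent lineage Lifr was lower after implantation than before. In order of stage the epiblast held 92.1 [72.2, 116], 43.2, 16.7, 4.63, 4.02 and 7.66 CPM [6.4, 9.09]. The level at E4.5 was 5.64-fold that at E5.5 [4.43, 7.19]. Each stage up to E5.0 lay below the one before by more than the counting intervals, and the E5.5 value lay above that of E5.25. Trophoblast held 4.82 CPM at E3.5 (4 UMIs), 15.7, 17.7, 6.96, 5.24 and 8.55 CPM, and giant cells 18.8, 12.9 and 18.0 CPM. The giant cell values of Lifr were 3.24%, 1.95% and 2.93% of the parietal level, beside 1.14% to 4.03%, 0.331% to 1.58% and 1.79% to 2.8% for the 5 parietal markers Lama1, Lamb1, Col4a1, Sparc and Pth1r, and 214%, 125% and 67.4% for Thbd, a further parietal marker. The whole list of 12 parietal markers summed to 502, 280 and 533 CPM in giant cells and 14399, 18345 and 17921 CPM in parietal endoderm. The part of parietal RNA in the giant cell values of Lifr was not tested.

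Il6st, the shared signalling chain gp130, varied less between lineages than Lifr. Parietal endoderm held 46.2, 50.4, 67.4 and 48.8 CPM, giant cells 40, 43.4 and 56.7 CPM [48.5, 66], and the uterine cells 88.7 CPM [56.8, 132] from 24 UMIs. Cluster 2 of E4.5 held 20.7 CPM, and the endoderm of the 4 later libraries 25.2 to 30.1 CPM. The epiblast held 44.1, 21.2, 14.3, 5.17, 6.11 and 7.19 CPM in order of stage. Its E4.5 level was 2.94-fold that at E5.5 [2.17, 3.96], a smaller fold than that of Lifr in the same pools. Trophoblast held 3.62 CPM at E3.5 (3 UMIs) and 21.3, 32.0, 15.0, 16.9 and 21.7 CPM later. At E5.5 giant cells stood 2.62-fold above trophoblast in Il6st [2.17, 3.15].

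Both receptor chains were found together most often in parietal endoderm and in the uterine cells. A UMI of Lifr and a UMI of Il6st were in 7.81%, 7.18%, 11.7% and 5.64% of thinned parietal cells, and in 2.27% (1 of 44 cells) to 0.0799% of epiblast cells. In 5 of 35 uterine cells both were found. Within parietal endoderm of E5.5, Il6st was in 8.82% [5.31, 13.6] of cells with Lifr and 11.3% [6.16, 18.6] of the rest, intervals that overlap. Il6st (ENSMUSG00000021756) spans chromosome 13 from 112464070 to 112510086 on the plus strand.

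Nrg1, the neuregulin ligand, was an endoderm transcript with its highest levels in parietal endoderm. Parietal endoderm held 1342 CPM [1322, 1362] at E4.75, then 1063, 804 and 723 CPM [685, 763]. Its E4.75 pool lay mostly in cluster 14 (383 of 398 cells), with 4 parietal and 2 endoderm markers among its 10 leading genes. That pool held 13420 CPM of the 12 parietal markers and 10697 CPM of the 12 endoderm markers. Endoderm of E4.75 held 4987 and 11613 CPM of these lists. The size of the parietal pool of E4.75 moved with the processing, as given below. Cluster 2 of E4.5 held 659 CPM [637, 681], and the endoderm 518, 307, 354 and 197 CPM [185, 209] afterwards. The parietal level at E5.5 was 3.67-fold that of the other endoderm [3.38, 3.98], and the parietal pools lay above the endoderm of the same library at all 4 stages. Nrg1 was found in 87.7%, 84.9%, 77% and 74.6% of thinned parietal cells. It was found in 71.6% of thinned cells in the pool of cluster 2 and in 62.8%, 42%, 42.5% and 33.9% of endoderm cells from E4.75 on.

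The endoderm clusters were ordered in Nrg1 as they were in Pdgfra. Cluster 18 held 716, 595 and 281 CPM at E5.0 to E5.5, and cluster 25 held 63.0, 63.8 and 55.4 CPM. Cluster 17 held 356 and 358 CPM at E5.0 and E5.25, between the other 2. In parietal endoderm cluster 14 held 1349, 991, 707 and 633 CPM and cluster 15 held 1139, 862 and 754 CPM from E5.0 on, so the parietal clusters differed far less in Nrg1 than in Lifr.

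The epiblast held 5.05 CPM of Nrg1 at E3.5 (4 UMIs), 6.66, 8.99, 13.8, 12 and 28.9 CPM [26.4, 31.5] at E5.5. The E5.5 level was 4.33-fold that of E4.5 [2.85, 6.9]. In the epiblast of E5.5 Nrg1 stood at 14.6% of its endoderm level. Of the list of 12 endoderm markers, Apoa1, Ttr, Apob and Cubn stood at 0.835% to 1.11%. At E4.5 Nrg1 stood at 1.01% of its level in cluster 2 and these markers at 0.773% to 2.62%. The whole list of 12 endoderm markers summed to 227 CPM in epiblast and 11446 CPM in endoderm at E5.5, and to 498 CPM in epiblast and 8631 CPM in cluster 2 at E4.5. Parietal endoderm held 723 CPM of Nrg1 at E5.5. The part of endoderm or parietal endoderm RNA in the epiblast values was not tested. A UMI was found in 8.25% of thinned epiblast cells at E5.5 and 1.34% at E4.5.

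Giant cells held 23.7, 5.5 and 23.8 CPM of Nrg1 at E5.0 to E5.5, and trophoblast 3.09, 2.34 and 13.3 CPM. At E5.5 giant cells were 1.79-fold above trophoblast [1.35, 2.34], but below it (log2 ratio −0.17) when cells of mixed clusters were put in their best class. The level in giant cells of E5.0 was 7.74% of that in endoderm, where Apoa1, Ttr, Apob and Cubn stood at 4.82% to 6.86%, and 41.8% of its 134 UMIs lay in 5 cells. Endoderm held 307, 354 and 197 CPM of Nrg1 at E5.0, E5.25 and E5.5. In these libraries the 12 endoderm markers summed to 786, 204 and 400 CPM in giant cells and 146, 145 and 402 CPM in trophoblast. In endoderm they summed to 11605, 12000 and 11446 CPM. The part of endoderm RNA in the giant cell and trophoblast values of Nrg1 was not tested. Nrg1 (ENSMUSG00000062991) spans chromosome 8 from 31814551 to 32884029 on the minus strand, 1069479 bases of which 10351 are exonic. The sources used here do not say whether reads in introns were counted.

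Erbb3, a neuregulin receptor, was higher in the trophoblast and epiblast than in the endoderm lineages after E4.5. Trophoblast held 54.2 CPM [39.6, 72.6] at E3.5 and 31.6, 31.3, 48.8, 57.4 and 43.8 CPM [40.8, 47] afterwards. The epiblast held 12.6, 24.6, 18.0, 21.3, 19.5 and 22.0 CPM [19.9, 24.4]. At E5.5 trophoblast stood 1.99-fold above epiblast [1.76, 2.25], 4.66-fold above endoderm and 4.3-fold above giant cells [2.99, 6.41]. The uterine cells held 129 CPM [90.1, 180], the highest of the 25 pools.

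Erbb3 was low in the Nrg1-rich lineages. Parietal endoderm held 6.78, 3.35, 2.86 and 4.29 CPM, and the endoderm of E4.75 to E5.5 held 6.78 to 9.41 CPM. The parietal level of E5.5 lay below that of endoderm (log2 ratio −0.44), from 8 UMIs, and above it with no doublet removal (0.35), with finer clusters (0.62) and with the 8 genes and their pathway genes used in clustering (0.47), so it had no stable direction. Cluster 2 of E4.5 held 24.3 CPM, but its pool had 127 UMIs in 49 of 419 cells and 45.7% of them in 5 cells. Giant cells held 13.3, 11.4 and 10.2 CPM. Among trophoblast clusters, cluster 9 held 56.2, 69.6 and 66.8 CPM and cluster 5 held 14.2, 15.8 and 18.5 CPM. Clusters 9 and 5 stood in the opposite order in Pdgfa.

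Erbb2, the partner kinase, was sparse in every lineage. Trophoblast held 33.7 CPM [22.4, 48.8] at E3.5, from 28 UMIs in 17 of 42 cells, and 7.20, 11.9, 15.3, 13.5 and 15.0 CPM [13.3, 16.9] afterwards. Parietal endoderm held 9.58, 13.8, 17.9 and 23.6 CPM [17.1, 31.7], and the E5.5 level was 2.46-fold that of E4.75 [1.7, 3.5]. That fold sets a pool mostly of cluster 14 (383 of 398 cells) against one mostly of cluster 15 (308 of 401). Parietal cluster 14 held 9.39, 7.33, 10.3 and 21.3 CPM of Erbb2 [10.2, 39.2], the last from 10 UMIs. In cluster 15 Erbb2 was 20.8, 22.4 and 24.3 CPM from E5.0 on. The epiblast held 5.05, 2.32, 3.02, 4.27, 4.49 and 7.25 CPM, the endoderm from E4.75 on 2.26 to 5.53 CPM and giant cells 9.74, 6.45 and 9.85 CPM. At E5.5 trophoblast stood 2.07-fold above epiblast in Erbb2 [1.67, 2.59] and parietal endoderm 4.26-fold above the other endoderm [2.62, 7.02]. A UMI of both Erbb2 and Erbb3 was in 10 of 901 thinned trophoblast cells at E5.25. Erbb2 (ENSMUSG00000062312) lies on the plus strand of chromosome 11 (98412470 to 98437716), where Mien1 overlaps it on the opposite strand. Erbb3 (ENSMUSG00000018166) lies on the minus strand of chromosome 10 (128567523 to 128589652).

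Egfr was highest in trophoblast and giant cells, and the trophoblast of E3.5 held little of it. In order of stage trophoblast held 3.62 (3 UMIs), 155 [142, 170], 128, 33.1, 25.9 and 29.3 CPM [26.8, 31.9]. The ratio of E4.5 to E3.5 was 43 [14.6, 209] and rests on those 3 UMIs, and the E4.5 level was 5.31-fold that of E5.5 [4.68, 6.01]. A UMI was found in 3 of 42 trophoblast cells at E3.5 and 149 of 237 at E4.5, and in 0%, 32.1%, 27.3%, 8.83%, 6.88% and 8.7% of thinned cells in order of stage. Cluster 0 held 151 CPM at E4.5 and 325 CPM at E4.75, where cluster 8 held 121 CPM.

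Giant cells held 86.8, 70.5 and 49.6 CPM of Egfr [41.9, 58.3], which was 2.62-fold [2.33, 2.94], 2.72-fold and 1.69-fold [1.4, 2.04] the trophoblast level of the same library. Cluster 5 held 75.0, 40.2 and 42.2 CPM and cluster 9 held 19.2, 20.6 and 19.6 CPM. Cluster 10 lay between them with 45.2, 33.0 and 23.3 CPM. Egfr thus followed Pdgfa in being lower in cluster 9 than in cluster 5, and differed from Erbb3. The epiblast held 1.26 to 11.9 CPM, cluster 2 held 9.96 CPM, the later endoderm 2.74 to 4.79 CPM, and parietal endoderm 1.40, 1.51, 1.91 and 0.536 CPM. In the epiblast of E4.5 65.9% of 41 UMIs lay in 5 cells. Egfr (ENSMUSG00000020122) lies on the plus strand of chromosome 11 (16752203 to 16918158), and Egfros overlaps it on the opposite strand.

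Comparisons between pools were read against all genes. A gene was counted as measured at 10 CPM or more in either pool and as different at 2-fold or more, so low values in 1 pool could favour a call. In the epiblast of E4.5 over E3.5, 6 of the 8 genes were measured, with Egfr higher (9.42-fold [1.6, 381] over 1 UMI) and Pdgfra, Lifr and Il6st lower, beside 16.4% and 18.2% of all measured genes higher and lower. In the epiblast of E5.5 over E4.5, 6 were measured, with Nrg1 higher and Pdgfa, Lifr, Il6st and Egfr lower, beside 13.2% and 17.8% of all genes. In E5.25 over E4.75, both dissected without the filter, 5 were measured, none higher and Pdgfa, Lifr and Il6st lower, beside 2.32% and 7.56%. Pdgfa (6.39-fold [5.34, 7.69]), Lifr (4.14-fold [3.38, 5.11]) and Il6st (2.34-fold [1.96, 2.8]) stood higher at E4.75 than at E5.25.

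In the endoderm of E5.5 over cluster 2 of E4.5, 6 were measured, none higher and Pdgfra, Pdgfa, Lifr, Nrg1 and Erbb3 lower, beside 17.2% and 12.3% of all genes higher and lower. The folds of E4.5 over E5.5 were 2.86 [2.56, 3.21] for Pdgfra, 3.59 [3.01, 4.32] for Lifr and 3.34 [3.12, 3.58] for Nrg1. Their size moved with the processing, as given below. With each library clustered alone, E4.5 had 200 endoderm and 212 parietal endoderm cells in place of 419 and 3. These folds thus set a pool that could be divided against endoderm without its parietal part. In the endoderm of E5.25 over E4.75, 5 were measured and none was 2-fold higher or lower, beside 3.77% and 2.76%. Over that interval the log2 ratios of CPM plus 10 were −0.25 for Pdgfra, −0.34 for Lifr and −0.54 for Nrg1, all smaller in size than those from cluster 2 to E5.5.

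In the trophoblast of E4.5 over E3.5, 7 were measured, with Lifr, Il6st, Nrg1 and Egfr higher and Erbb2 lower, beside 14.7% and 14.8% of all genes. The E3.5 pool held 3 to 5 UMIs of each of the 4 that were higher. At E4.5 61.2% of the 49 Nrg1 UMIs lay in 5 cells, and 8 of the 18 cells with Nrg1 were among the 12 with Pdgfra. In E5.5 over E4.5, 7 were measured, with Erbb2 higher and Pdgfa and Egfr lower, beside 12.1% and 13.6%. In E5.25 over E4.75, 6 were measured, none higher and Lifr and Egfr lower, beside 3.4% and 7.09%. Egfr was 4.95-fold higher at E4.75 than at E5.25 [4.55, 5.39].

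Between lineages, cluster 2 over epiblast at E4.5 had 7 of the 8 measured, with Pdgfra (128-fold [58.7, 350]), Lifr and Nrg1 higher and Pdgfa lower, beside 20.7% and 15.5% of all genes. Endoderm over epiblast at E5.5 had 6 measured, with Pdgfra, Lifr, Il6st and Nrg1 higher and Erbb3 lower, beside 28.1% and 13.5%. Trophoblast over epiblast at E5.5 had 6 measured, with Pdgfa (16.2-fold [13.4, 19.8]), Il6st, Erbb2 and Egfr higher and Nrg1 lower, beside 12.7% and 14.1%. Parietal endoderm over endoderm at E5.5 had 6 measured, with Pdgfra, Pdgfa, Lifr, Nrg1 and Erbb2 higher and none lower, beside 7.73% and 10.7%. Giant cells over trophoblast at E5.5 had 8 measured, with Pdgfra, Lifr and Il6st higher and Erbb3 lower, beside 6.86% and 5.96%. The median log2 ratio of all genes lay between −0.12 and 0.22 in these comparisons, so no member named here changed direction with it.

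The remaining genes of the 3 pathways, 71 in 6 lists, were counted by the same rule. In the epiblast of E5.5 over E4.5, 40 were measured, 5 higher and 13 lower, beside 13.2% and 17.8% of all measured genes. Their median log2 ratio was −0.18 beside 0.02 for all genes. Of the JAK and STAT3 list, 9 of 17 were measured with a median of −0.75. Pim3, a kinase induced by cytokines, was higher, and Tyk2, Stat3, Tfcp2l1, Klf4 and Klf5 were lower. Stat3, the transcription factor activated by the LIF receptor, held 95.9, 29.6, 26.4, 13.6, 12.2 and 9.12 CPM in the epiblast in order of stage. Of its naive targets, Tfcp2l1 held 353, 60.9 and 8.84 CPM at E3.5, E4.5 and E4.75. Klf4 held 361 and 47.8 CPM at E3.5 and E4.5. The E3.5 values are from a pool with inner cells of both kinds. Stat3 was higher in parietal endoderm (122, 159, 224 and 171 CPM), where Lifr was high, as was the Kruppel-like factor Klf5 (407 to 481 CPM). Socs3, the feedback inhibitor of this pathway, held 15.1, 30.8, 34.1 and 8.57 CPM there and 30.5, 29.2 and 24.5 CPM in giant cells.

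In the endoderm of E5.5 over cluster 2, 41 of the 71 were measured, 17 higher and 5 lower, beside 17.2% and 12.3% of all genes. Their median log2 ratio was 0.67 beside 0.18 for all genes. Of the 8 members 5 were lower in the same comparison and none higher. Those higher included Jak2, Stat5a, Stat5b and Pim1 of the JAK and STAT3 list (7 higher and 1 lower of 12 measured) and the adaptor Grb7, which binds ERBB receptors, with 35.8 CPM in cluster 2 and 52.2, 108, 118 and 123 CPM in later endoderm. Lrig3, of the LRIG membrane proteins, held 24.7 CPM in cluster 2 and 61.9, 86.3, 80.6 and 101 CPM in later endoderm. Endoderm over epiblast at E5.5 had 21 higher and 2 lower of 38 (median 0.93 beside 0.22), beside 28.1% and 13.5% of all genes. Of these the JAK and STAT3 list gave 10 of 12. Trophoblast over epiblast at E5.5 had 16 higher and 3 lower of 38, beside 12.7% and 14.1% of all genes.

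Few other ligands and receptors were abundant. Of the PDGF family only Pdgfrl, a receptor-like protein, reached 50 CPM (92.5 CPM in cluster 2). Pdgfc, another PDGFRα ligand, held 28.7 and 27.6 CPM in the epiblast of E4.5 and E4.75 and 5.97, 4.88 and 8.01 CPM afterwards. Pdgfd, which binds the β receptor, held 34.9 to 39.1 CPM in the epiblast from E4.75 to E5.5, and Pdgfrb itself reached at most 9.08 CPM in any pool. Of the 13 genes of the LIF and IL-6 family only Osmr, the oncostatin M receptor, reached 50 CPM (66.5 CPM in uterine cells). Lif held 30.1 CPM in trophoblast of E3.5 and 6.38, 9.29 and 29.2 CPM in giant cells of E5.0 to E5.5, and Il6ra, the IL-6 receptor chain that pairs with gp130, 9.92, 22 and 27.5 CPM there. Giant cells over trophoblast at E5.5 had both of these higher. Of 37 measured pathway genes 9 were higher and 1 lower, beside 6.86% and 5.96% of all genes.

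Of the other ERBB ligands, Nrg2 was the one shared with the embryo's inner lineages. It held 243 CPM in the inner cells of E3.5, 73.5 CPM in cluster 2, 82.3, 9.54, 8.19 and 3.87 CPM in later endoderm, and 139, 134, 243 and 99.1 CPM in parietal endoderm. Hbegf, the heparin-binding ligand of EGFR, held 44.4, 43.7, 51.4 and 47.2 CPM in parietal endoderm and 661 CPM in the uterine cells, which also held 225 CPM of Areg and 92.3 CPM of Ereg. Parietal endoderm over endoderm at E5.5 had Hbegf and Nrg2 higher, the 2 measured ligands of that list. Of 42 pathway genes in all, 6 were higher and 7 lower, beside 7.73% and 10.7% of all genes. Erbb4, the other neuregulin receptor, reached at most 4.21 CPM in any pool. Errfi1, a feedback inhibitor of EGFR, held 119, 257, 198, 146, 142 and 143 CPM in trophoblast, highest at E4.5 as Egfr was.

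**Figure D5:**
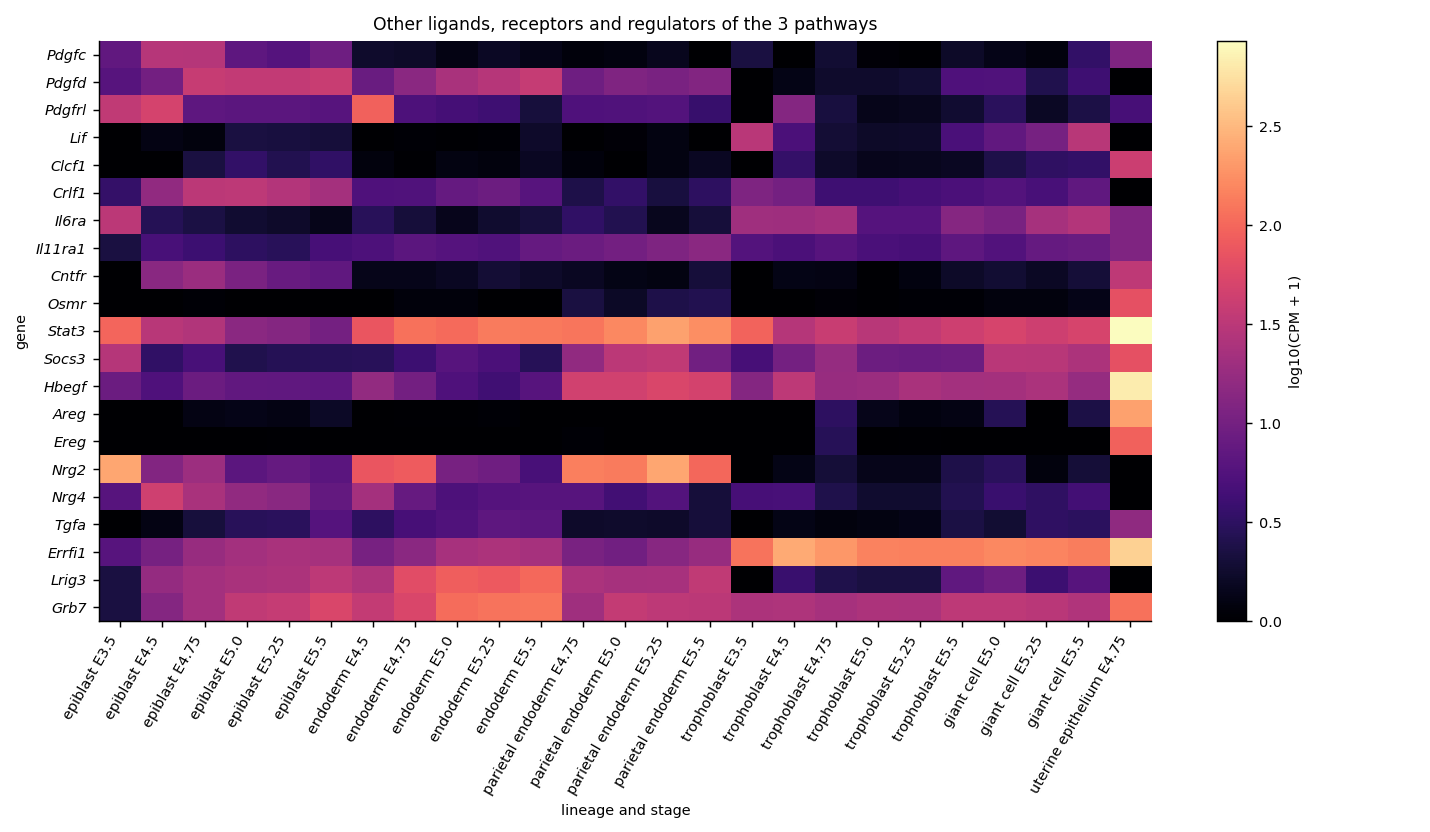
Level of 21 other ligands, receptors and regulators of the 3 pathways (rows) in every pool (columns, lineage and stage), as the colour of log10 of CPM plus 1. Stat3 is dark in the later epiblast (9.12 CPM at E5.5) and bright in parietal endoderm (171 CPM), and Hbegf is brightest in the uterine cells (661 CPM).

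The genes most like each member were taken by Pearson correlation of log2 of CPM plus 10 over the 25 pools, among 8654 genes at 30 CPM or more in at least 1 pool. The pools share libraries and lineages, so these values are descriptions. Pdgfra was most like Col4a1, Col4a2 and Tent5a (0.97 each), Nrg1 like Fgfr3, Cemip and Flrt3 (0.98 each), and Lifr like Mme (0.95), Fam129b (0.92) and Arntl (0.91). Il6st was most like Itgb1 (0.90), Fndc3b and Pgm2 (0.89 each). Among the genes most like Pdgfa were Gata3 (0.90) and Sfn (0.88), and Egfr was most like Wipf3 (0.96), Adam8 (0.95) and Dnase1l3 (0.93). Col4a1 and Col4a2 were among the parietal endoderm markers, and Gata3 among the trophoblast markers, that named the clusters. Their likeness to a member is thus not independent of how the pools were made. Erbb3 was most like Cldn3 and Smad3 (0.85 each) and Wnt7b (0.84), and among those most like Erbb2 were Pqlc1 (0.80) and Egln1 (0.77). Among the members, Pdgfra went with Nrg1 (0.89) and against its own ligand Pdgfa (−0.41). Erbb3 went against its ligand Nrg1 (−0.66). Lifr and Il6st went together (0.74), and Erbb2 and Erbb3 less so (0.27).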

How the data were processed

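Single-cell RNA was counted in 6 libraries, whose stages were taken from their labels. The matrices hold raw UMI counts, as the authors deposited them. Their headers name Cell Ranger 7.1.0 as the software. The builds mm10, GRCm38 and hg38, stand in the submitters' processing notes without a role. The sources used here do not give the annotation release or the use of strand and introns. Of the gene identifiers 99.6% matched GENCODE M21 on GRCm38, as did all 8 members and all 71 pathway genes.

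Cells needed at least 1500 detected genes and at most 15% mitochondrial counts, which 21856 of 42328 barcodes met. At E5.5 68.1% of barcodes had fewer than 1500 genes. Scrublet scored doublets, and the highest scores were removed, 0.8% for each 1000 cells up to 8%, 1036 in all. Counts were scaled to 10000 and log-transformed, and 2000 variable genes, from which members and pathway genes were left out, 30 components and 15 neighbours gave 26 Leiden clusters at resolution 1.0 (scanpy 1.11.5, python 3.11.15). A class name needed 3 markers at 2-fold or more over the mean of clusters. Clusters 6, 11, 12 and 16, whose second, unrelated class scored 0.45 or more of the first, were kept out, a limit set after the clusters were seen, as was the decision to use no primitive streak markers for names. Pools needed 30 cells.

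Folds are ratios of CPM with exact conditional 95% intervals, and log2 ratios were taken after adding 10 CPM, so differences of sparse genes are understated. A count of 0 allows 3 UMIs. For shares each cell was thinned to 3000 UMIs, which left out 1085 shallower cells, 1058 of them at E5.5. With 1 library per stage there was no test. Simulated pools returned all genes changed 4-fold, with 96% of intervals covering the true ratio. Their counts were drawn as Poisson, the model behind the intervals. The coverage therefore does not show how the intervals fare where few cells hold many of the UMIs. All 8 members were named. For each member the genes most like it were named from its first 3, some of which are not reported here. Pathway genes were named from 50 CPM in a pool, or as a partner of a member from 10 UMIs. Those named beside a count, clusters named for their markers, and examples within single clusters were chosen after their values were seen. The members and lists were chosen with earlier results of these data known. Alternatives changed the thresholds, doublet removal, clustering, pseudocount, scaling and stages compared.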

Additional observations from a re-analysis of the deposited data

Results flagged for a closer look

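In 3 instances a gene moved in opposite directions in 2 lineages between the same stages. Lifr had a log2 ratio of E4.5 over E3.5 of 0.79 in trophoblast (4.82 and 15.7 CPM) and −0.94 in epiblast (92.1 and 43.2 CPM). Il6st had 1.2 in trophoblast and −0.8 in epiblast between the same libraries. The trophoblast of E3.5 held 4 UMIs of Lifr and 3 of Il6st. The epiblast pool of E3.5 held inner cells of both kinds, so its ratios are not within 1 lineage. Nrg1 had a log2 ratio of E5.5 over E4.5 of 1.22 in epiblast, and −1.69 from cluster 2 of E4.5 to the endoderm of E5.5. Each rests on 1 library per stage, and the difference between lineages was not tested.

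The cells of mixed clusters at E5.5, which entered no comparison, carried all 8 genes above the limit that a count of 0 allows. They held 33 CPM of Pdgfra, 45.4 of Pdgfa, 56.7 of Lifr, 20.3 of Il6st, 94.8 of Nrg1, 14.2 of Erbb2, 36.3 of Erbb3 and 11.1 of Egfr.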

How the results depend on the processing

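The main log2 ratios of CPM plus 10 were 2.90 and 0.36 for Pdgfra and Pdgfa in endoderm over epiblast at E5.5, −1.59 and −0.86 for Lifr and Il6st in epiblast of E5.5 over E4.5, 0.54 and 0.60 for Nrg1 and Egfr in giant cells over trophoblast at E5.5, and 0.54 and 0.75 for Erbb2 and Erbb3 in trophoblast over epiblast at E5.5. Of 106 alternatives for these 8, 77 moved them within their counting interval, 28 moved them further and 1 reversed them: Nrg1 in giant cells was −0.17 with mixed clusters in their best class. With a pseudocount of 1 CPM the values were 4.84 (Pdgfra), 0.71 (Pdgfa), −2.35 (Lifr), −1.44 (Il6st), 0.96 (Erbb2) and 0.96 (Erbb3), by construction. With E4.75 as the earlier stage, Lifr was −0.59 and Il6st −0.50. With E5.25 as the later stage, Pdgfra was 3.17, Lifr −1.92, Egfr 1.16, Erbb2 0.70 and Erbb3 1.19. With mixed clusters in their best class Pdgfra was 2.77. With 1000 genes per cell Pdgfra was 2.53 and Pdgfa 0.81, and with 2500 genes Nrg1 was 0.95 and Erbb3 0.95. With at most 10% mitochondrial counts Nrg1 was 1.80 and Egfr 0.30. Without doublet removal Nrg1 was 1.34, Erbb2 0.81 and Erbb3 1.24. At resolution 2.0 Pdgfra was 3.03, and with members used in clustering Nrg1 was 1.16. With each library clustered alone Pdgfra was 2.62, Pdgfa 0.95 and Nrg1 1.67. At E5.5 giant cells numbered 358 in the main run. With at most 10% mitochondrial counts, without doublet removal and with libraries clustered alone they numbered 990, 1860 and 957. Trophoblast numbered 2481 in the main run and 1894, 1201 and 1939 in these. With 1000 genes, 2500 genes, resolution 2.0 and members used in clustering giant cells numbered 411, 200, 349 and 354. Endoderm numbered 1133 in the main run, 433 with 2500 genes and 3616 with 1000 genes. The cause of the shifts in value was not tested.

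Of the other values 160 stayed within their interval, 95 moved and 3 reversed, all 3 of Erbb3 in parietal endoderm over endoderm at E5.5 (main −0.44): 0.35 without doublet removal, 0.62 at resolution 2.0 and 0.47 with members used in clustering. Lifr in parietal endoderm over endoderm ranged from 3.51 to 4.35 and Nrg1 in endoderm over epiblast from 2.16 to 4.05. Pdgfra in giant cells over trophoblast ranged from 0.94 to 2.30. For endoderm of E5.5 over E4.5, Pdgfra ranged from −1.70 to −0.38, Lifr from −1.81 to −0.21 and Nrg1 from −1.91 to −0.88. The alternatives there included E4.75 as the earlier stage. The parietal pool of E4.75 had 398 cells, but 216 without doublet removal and 214 with members used in clustering. In these runs the endoderm of E4.75 had 886 and 885 cells in place of 701. In the other runs that clustered anew the parietal pool of E4.75 had 333 to 415 cells. Each library clustered alone gave no value for Egfr in trophoblast of E4.5 over E3.5. Without the minimum of 10 CPM, 14 pathway genes were higher and 22 lower in epiblast of E5.5 over E4.5, where 5 and 13 were with it. The alternatives E5.25 as the later stage, mixed clusters in their best class and a run without clusters of few mitochondrial counts were added after the data were seen. No paired analysis was possible because each stage is 1 library.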
